A study of Mus musculus with 57 samples.

Results

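Sall1, Spi1, Runx1, Maf, Mef2a, Mef2c, Bhlhe40 and Bhlhe41 are 8 genes for transcription factors that microglia, the resident macrophages of the brain, express as part of their identity. They were chosen by symbol, and all 8 were found in both count tables, among 50565 genes in the table of the sex experiment and 53278 in that of the LPS experiment. RNA came from CD11b-positive brain cells, labelled microglia, of wild-type mice (WT) and littermates deficient in P2RY12 (KO), a receptor for extracellular nucleotides. Adult males (4 WT, 5 KO) and females (4 WT, 5 KO) made up the sex experiment. The LPS experiment set libraries labelled ns (8 WT, 8 KO) against libraries labelled LPS (9 WT, 8 KO), from mice given lipopolysaccharide, which comes from the outer membrane of Gram-negative bacteria, by intraperitoneal injection (1 mg/kg). What ns stands for is not stated in the labels, nor are sex, age and the time after injection for that experiment. The knockout allele is not described in the labels. Nothing states that the LPS libraries came from separate animals, so p-values there rest on the spread between libraries.

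Spi1 encodes PU.1, an ETS-family factor that the whole myeloid lineage needs, and Runx1 encodes a RUNT-domain partner of PU.1 in blood cell development. Sall1 is a zinc-finger factor that in the brain is made almost only by microglia and keeps them from taking on features of other macrophages. Maf encodes c-Maf, a basic leucine-zipper factor of differentiated macrophages. Mef2a and Mef2c encode MADS-box factors that bind an A/T-rich element, and MEF2C has been described as a brake on microglial inflammatory responses. Bhlhe40 and Bhlhe41 encode related helix-loop-helix repressors that bind the E-box CACGTG and act in part redundantly in tissue macrophages.

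Promoter windows of 5 of the 8 genes were matched in RefSeq (build GRCm38.p6), 250 bases before to 50 after the start of a transcript. No window was matched for Spi1, Maf and Bhlhe40. All 5 genes with a window changed with LPS in at least 1 fit below, as did Maf and Spi1. The most upstream window of each gene is given. Capitals mark matches, on either strand, to CACGTG (E-box), AACCACA (RUNX factors), GAGGAAG (PU.1), TGAGTCA (AP-1), the MEF2 consensus or the NF-kappaB consensus. The windows are chr8:89044113-89044412 for Sall1, chr7:67372809-67373108 for Mef2a, chr16:92826025-92826324 for Runx1 and chr6:145865371-145865670 for Bhlhe41, all on the minus strand, and chr13:83503784-83504083 for Mef2c, on the plus strand.
Sall1: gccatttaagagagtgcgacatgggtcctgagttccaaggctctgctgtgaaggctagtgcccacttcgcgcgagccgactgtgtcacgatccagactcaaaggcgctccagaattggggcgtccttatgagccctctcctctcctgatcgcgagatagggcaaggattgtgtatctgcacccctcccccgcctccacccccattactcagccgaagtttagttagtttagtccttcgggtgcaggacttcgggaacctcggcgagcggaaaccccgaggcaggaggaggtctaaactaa
Mef2a: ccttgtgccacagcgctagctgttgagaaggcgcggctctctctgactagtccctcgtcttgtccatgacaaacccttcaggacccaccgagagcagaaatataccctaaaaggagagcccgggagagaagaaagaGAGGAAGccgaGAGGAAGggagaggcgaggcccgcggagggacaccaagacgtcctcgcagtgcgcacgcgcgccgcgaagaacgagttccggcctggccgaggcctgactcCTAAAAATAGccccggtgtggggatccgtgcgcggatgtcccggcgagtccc
Mef2c: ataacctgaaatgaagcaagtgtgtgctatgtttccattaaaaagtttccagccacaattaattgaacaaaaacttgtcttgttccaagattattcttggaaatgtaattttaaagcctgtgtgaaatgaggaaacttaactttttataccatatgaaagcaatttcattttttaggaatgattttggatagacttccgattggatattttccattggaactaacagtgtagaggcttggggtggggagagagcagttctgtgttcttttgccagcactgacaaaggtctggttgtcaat
Runx1: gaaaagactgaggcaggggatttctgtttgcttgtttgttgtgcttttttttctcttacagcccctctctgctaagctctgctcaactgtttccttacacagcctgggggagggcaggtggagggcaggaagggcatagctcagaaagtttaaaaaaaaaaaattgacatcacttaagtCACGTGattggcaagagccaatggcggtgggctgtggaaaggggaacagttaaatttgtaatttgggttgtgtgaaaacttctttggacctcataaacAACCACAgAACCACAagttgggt
Bhlhe41: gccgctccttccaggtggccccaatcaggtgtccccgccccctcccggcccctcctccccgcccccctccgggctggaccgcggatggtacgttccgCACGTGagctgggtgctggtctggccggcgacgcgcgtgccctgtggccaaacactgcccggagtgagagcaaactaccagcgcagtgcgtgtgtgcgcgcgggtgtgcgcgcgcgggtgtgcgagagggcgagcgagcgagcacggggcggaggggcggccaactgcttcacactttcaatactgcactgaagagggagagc
The Mef2a window held 1 match to the MEF2 consensus, which 3.19% of 32851 promoter windows hold, and 2 matches to the PU.1 letters, which 13.6% hold. The Runx1 window held 2 copies of the RUNX letters (5.27% of windows hold at least 1) and 1 E-box (7.15%). The Bhlhe41 window held 1 E-box, the letters its own protein family binds. The windows of Sall1 and Mef2c shown held none of the 6 motifs. Of the windows not shown, that of the second of 3 Mef2c start sites held 1 match to the PU.1 letters, and the others held none. A match describes letters and is not evidence of binding.

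Both experiments gave raw read counts per gene. Animals of the sex experiment had totals of 58.54 to 318.5 M counts (M standing for mega), and libraries of the LPS experiment had 15.91 to 168.4 M. Even numbers made up 76.96% to 86.11% of low counts per animal in the sex experiment and 41.42% to 46.32% per library in the LPS experiment. A count may therefore not stand for the same unit in both, which was not tested. Levels are in CPM, a gene's count divided by its library's total in M counts after TMM scaling. P2ry12, the targeted gene, was at 2910 CPM or more in every WT animal and at 532.4 or less in every KO animal of the sex experiment. Microglial markers (Tmem119, Cx3cr1, Siglech, Fcrls, Csf1r) summed to at least 7509 CPM in every library of the LPS experiment, and those in the other table to at least 11610 CPM per animal (Fcrls was not in that table). In the LPS experiment the WT libraries of number 2 went against their labels. WT ns 1 and WT ns 5 had the acute-phase gene Saa3 at 1802 and 2377 CPM, whereas WT LPS 1 and WT LPS 6 had it at 1.6 and 2.88. These 4 libraries are shown apart and were left out of the main fit, and results with every library as labelled are given beside it. In that fit P2ry12 was at 3545 to 5387 CPM in WT ns and 579.7 to 1150 in KO ns. With LPS it was lower in both genotypes, at 407.9 to 1026 CPM in WT and 85.68 to 144.3 in KO. The KO ns and WT LPS ranges thus overlapped. WT LPS 8 and WT LPS 9 differed by little more than sampling noise (chi-square per degree of freedom of 1.86, against at least 8.32 for the other pairs) and were counted as 1 sample.

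Some libraries also stood apart from the rest of their experiment by their rank correlation across genes. In the sex experiment these were male WT 5 and female WT 2, with a median Spearman correlation of 0.895 and 0.930 against at least 0.976 for the others. Their neutrophil markers summed to 47040 and 27700 CPM, against 707.3 to 7763 in the other 16 animals. In the LPS experiment 6 libraries of the second library set stood apart at 0.622 to 0.781, against at least 0.878 for the others. WT ns 5 and WT LPS 6 of these are already among those shown apart, and WT LPS 7, KO ns 5, KO ns 6 and KO LPS 5 remained in the fit. Values without these libraries are given beside the results.

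Injection of LPS was accompanied by lower levels of Mef2c, Maf and Mef2a in both genotypes. Mef2c was 1.91-fold lower in KO and 2.04-fold lower in WT, Maf 1.89-fold and 1.71-fold lower, and Mef2a 1.43-fold and 1.46-fold lower. Sall1 was 2.21-fold lower in WT and also passed the test in KO when the libraries that stand apart were left out. Neither Spi1 nor Runx1 was called in either genotype with all libraries of the fit, and Runx1 rose in both once those libraries were left out. In all, 3 of 8 members were called in KO, where 29% of the 16075 genes tested were called in either direction and 15.3% were called lower, and 4 of 8 in WT, where the shares were 31.1% and 15.6% (edgeR's quasi-likelihood test, Benjamini-Hochberg adjusted p under 0.05). All called members were lower. Without the libraries that stand apart, 6 of 8 were called in KO, where 54.3% of genes tested were called, and 6 of 8 in WT, where 53.8% were. The median log2 fold change of the 8 members was -0.30 in KO and -0.61 in WT, against -0.01 over all genes tested in both. Summed markers of cell types differed between ns and LPS as well. Microglial markers had a median sum of 20500 CPM in KO ns (13740 to 22980) and 15340 in KO LPS (7509 to 16420), and of 19470 in WT ns (12640 to 25680) and 13120 in WT LPS (7685 to 17190). Neutrophil markers had 898.5 CPM (285.5 to 9387) and 2126 (999.6 to 4057) in KO, and 2580 (317.3 to 17190) and 2545 (1676 to 13010) in WT. Monocyte markers had medians of 137.8 and 334.2 CPM in KO and 322.1 and 391.6 in WT, and border-associated macrophage markers had 325.9 and 158.6 in KO and 391 and 130.6 in WT. At lower levels, the endothelial sum had medians of 74.38 and 29.03 CPM in KO and 54.09 and 18.1 in WT, the T and NK cell sum 20.34 and 5.98 in KO and 30.28 and 9.88 in WT. Dissociation-response genes summed to 41.09 to 148.9 CPM in KO ns and 25.76 to 371.6 in KO LPS, and to 109.4 to 218.8 in WT ns and 187.2 to 453.8 in WT LPS. The part of these markers in the members' changes was not tested. In bulk RNA, fewer cells of a type and less RNA per cell cannot be told apart.

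**Figure D1:**
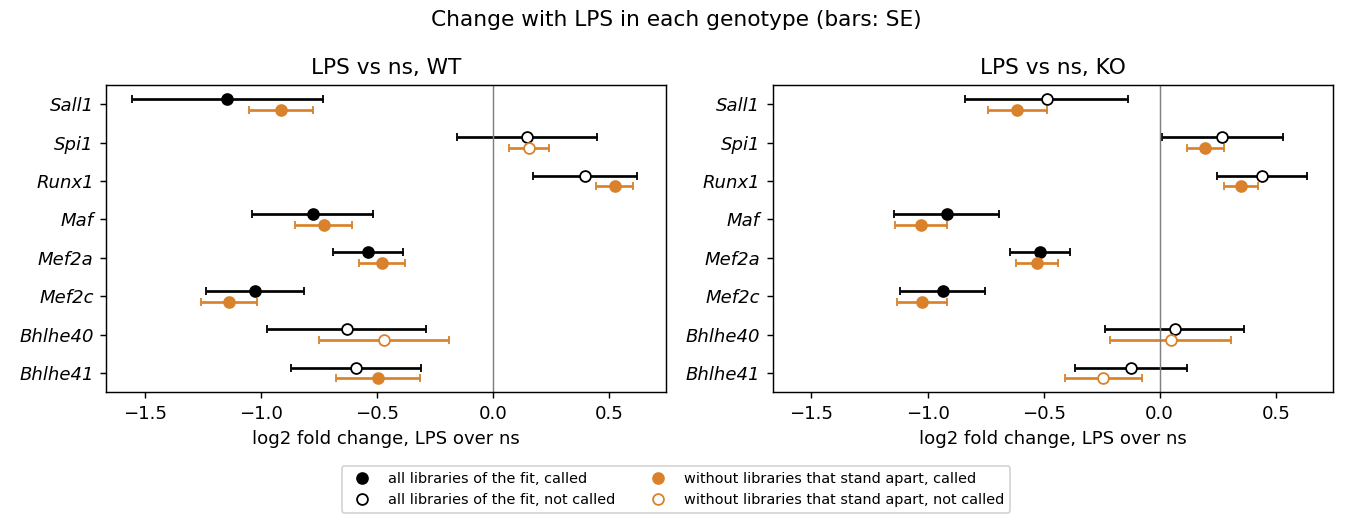
Log2 fold change of each gene between LPS and ns (x axis, bars are SE) in WT (left) and KO (right), from all libraries of the fit (black) and without the libraries that stand apart (orange); filled points are called at an adjusted p under 0.05. Maf, Mef2a and Mef2c are filled and left of 0 in both genotypes and both fits, and Sall1 is filled in all but the black KO point.

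**Figure D2:**
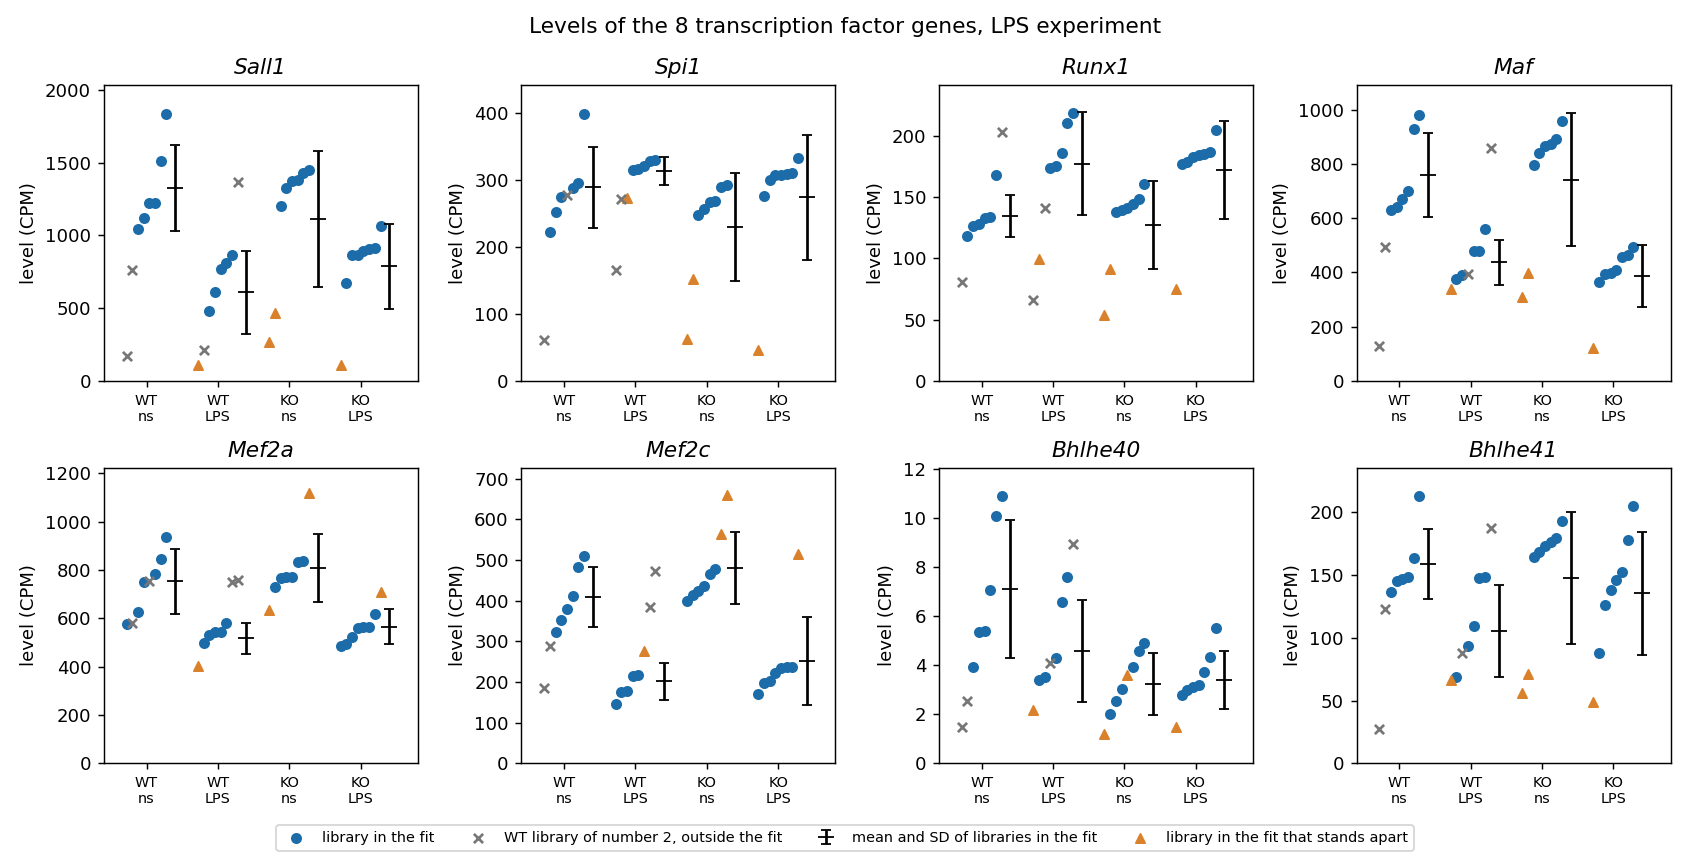
Level of each gene in CPM (y axis) in every sample of the 4 groups of the LPS experiment, sorted by level within a group. Blue points are libraries of the fit, orange triangles are libraries of the fit that stand apart, grey crosses are WT libraries of number 2, and black marks give the mean and SD of the libraries of the fit. The blue points of Maf and Mef2c in the LPS groups lie below those of the ns groups, as in 16.6% of genes tested in WT and 16.8% in KO. The triangles of Sall1 lie under all other libraries of their group.

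Mef2c, on chromosome 13 of GRCm39 from 83652136 to 83815197 on the plus strand, showed the lowest adjusted p-values among the members. In the 6 WT ns libraries of the fit its level had a lowest, median and highest value of 323.5, 394.8 and 508.9 CPM. In the 6 WT LPS samples these were 147.3, 197.2 and 276.5 CPM, so the groups did not overlap (13.9% of genes tested were lower without overlap in this comparison). In the 8 KO ns libraries they were 399.4, 450.7 and 660.1 CPM, and in the 8 KO LPS libraries 171.4, 228.1 and 513.7. The 513.7 CPM belonged to KO LPS 5, which stands apart, and the next highest KO LPS library had 237.2, below every KO ns library. Without the libraries that stand apart, 16.8% of genes tested were lower without overlap in KO. The log2 fold change (± SE) was -1.03 ± 0.21 in WT (adjusted p 0.000533) and -0.93 ± 0.18 in KO (adjusted p 0.000274, edgeR). Without the libraries that stand apart it was -1.14 ± 0.12 and -1.02 ± 0.11.

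Maf, on chromosome 8 from 116429992 to 116433633 on the minus strand, had a lowest, median and highest level of 631.8, 685 and 981.1 CPM in WT ns and of 339.3, 433.8 and 560.9 in WT LPS. In KO these were 310.2, 853.9 and 959.9 CPM in ns and 122.5, 402.7 and 492.5 in LPS. The WT groups did not overlap (13.9% of genes tested were lower without overlap). The KO groups overlapped through KO ns 5 and KO ns 6, and without the libraries that stand apart every KO LPS library (366.1 to 492.5 CPM) lay below every KO ns library (796.7 to 959.9), as did 16.8% of genes tested. The log2 fold change was -0.78 ± 0.26 in WT (adjusted p 0.0241, edgeR) and -0.92 ± 0.23 in KO (adjusted p 0.00277). Leaving out WT LPS 4 took the WT call to an adjusted p of 0.0547.

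Mef2a, on chromosome 7 from 66880911 to 67026435 on the minus strand, had the smallest change of the 3 genes called in both genotypes. Its lowest, median and highest levels were 577.3, 766.9 and 937.9 CPM in WT ns, 401.2, 538.1 and 582.6 in WT LPS, 634.7, 771 and 1119 in KO ns, and 487, 562.6 and 710.7 in KO LPS. The groups overlapped in both genotypes, in WT by 1 library of WT ns at 577.3 CPM. Without the libraries that stand apart, every KO LPS library (487 to 617.8 CPM) lay below every KO ns library (729.3 to 837.6), as did 16.8% of genes tested. The WT groups still overlapped. With LPS it changed by a log2 fold change of -0.54 ± 0.15 in WT (adjusted p 0.00708) and -0.51 ± 0.13 in KO (adjusted p 0.00338, edgeR), and without the libraries that stand apart of -0.48 ± 0.10 and -0.53 ± 0.09.

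Sall1, on chromosome 8 from 89753867 to 89770790 on the minus strand, had a lowest, median and highest level of 1042, 1223 and 1834 CPM in WT ns and 109.3, 691.6 and 866.6 in WT LPS. In KO the values were 267.8, 1351 and 1452 CPM in ns and 111.4, 882.5 and 1068 in LPS. The lowest values of WT LPS, KO ns and KO LPS all came from libraries that stand apart, and the other WT LPS and KO LPS libraries had at least 479.3 and 670.7 CPM. The log2 fold change was -1.15 ± 0.41 in WT (adjusted p 0.035) and -0.49 ± 0.35 in KO (adjusted p 0.338, edgeR). Without the libraries that stand apart it was -0.91 ± 0.14 in WT (adjusted p 7.08e-06) and -0.61 ± 0.13 in KO (adjusted p 0.000235), and the groups did not overlap in either genotype (16.6% of genes tested were lower without overlap in WT and 16.8% in KO). The WT call passed the threshold narrowly: leaving out WT ns 4, 6 or 7, or WT LPS 2, 3, 7 or the sample of WT LPS 8 and 9, gave an adjusted p of 0.0537 to 0.0726.

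Runx1, on chromosome 16 from 92398354 to 92622962 on the minus strand, was the member with the largest positive estimate after LPS. Its lowest, median and highest levels were 118.1, 130.1 and 168.2 CPM in WT ns, 99.6, 180.7 and 218.6 in WT LPS, 53.82, 140.1 and 160.3 in KO ns, and 75.17, 183.6 and 204.6 in KO LPS. The log2 fold change of 0.40 ± 0.22 in WT (adjusted p 0.187) and 0.44 ± 0.19 in KO (adjusted p 0.0931) was not called by edgeR. Without the libraries that stand apart Runx1 rose in WT by 0.52 ± 0.08 (adjusted p 6.42e-06) and in KO by 0.35 ± 0.07 (adjusted p 0.00027), and no LPS library overlapped an ns library (14.6% of genes tested were higher without overlap in WT and 17.3% in KO). DESeq2 called Runx1 in KO with every library of the fit (adjusted p 0.0427), and leaving out KO LPS 5 gave an adjusted p of 0.0153 in edgeR.

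Spi1, on chromosome 2 from 90912750 to 90946104 on the plus strand, had a mean level of 289.5 ± 60.3 CPM (SD, n = 6) in WT ns, 314.6 ± 21 (n = 6) in WT LPS, 229.8 ± 80.7 (n = 8) in KO ns and 274.3 ± 93.4 (n = 8) in KO LPS. Its log2 fold change with LPS was 0.14 ± 0.30 in WT (adjusted p 0.759) and 0.27 ± 0.26 in KO (adjusted p 0.495, edgeR). An interval of 1.96 SE ran from -0.45 to 0.74 in WT. Without the libraries that stand apart the KO value was 0.20 ± 0.08, called at an adjusted p of 0.0421, and the WT value was 0.15 ± 0.09 (adjusted p 0.144).

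Bhlhe41, on chromosome 6 from 145803969 to 145811146 on the minus strand, had a mean level of 158.9 ± 27.8 CPM (n = 6) in WT ns, 105.6 ± 36.6 (n = 6) in WT LPS, 147.6 ± 52.8 (n = 8) in KO ns and 135.3 ± 49.1 (n = 8) in KO LPS. The log2 fold change was -0.59 ± 0.28 in WT (adjusted p 0.112) and -0.12 ± 0.24 in KO (adjusted p 0.761, edgeR). Leaving out the libraries that stand apart gave a call in WT (-0.50 ± 0.18, adjusted p 0.0247) and none in KO (-0.24 ± 0.16, adjusted p 0.223). Leaving out WT LPS 5 alone gave an adjusted p of 0.0329 in WT.

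Bhlhe40, on chromosome 6 from 108637590 to 108643886 on the plus strand, was the member with the fewest counts, with 17 to 90 counts in the lowest library of the 4 groups. It was at 7.13 ± 2.81 CPM (n = 6) in WT ns, 4.60 ± 2.08 (n = 6) in WT LPS, 3.24 ± 1.28 (n = 8) in KO ns and 3.40 ± 1.19 (n = 8) in KO LPS. Its log2 fold change with LPS was -0.63 ± 0.34 in WT (adjusted p 0.166) and 0.06 ± 0.30 in KO (adjusted p 0.904, edgeR), and -0.47 ± 0.28 and 0.05 ± 0.26 without the libraries that stand apart, again not called.

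The responses to LPS were compared between the genotypes through the interaction term, the KO log2 fold change minus the WT one. No member was called, and the background share was 0% of genes tested. The members had 0 unadjusted p-values under 0.05 in this contrast, and DESeq2 also called 0 members. The interaction was 0.66 ± 0.54 for Sall1 (adjusted p 0.788), 0.70 ± 0.45 for Bhlhe40 (adjusted p 0.747) and 0.47 ± 0.37 for Bhlhe41 (adjusted p 0.779, edgeR). It lay between -0.14 and 0.13 for Spi1, Runx1, Maf, Mef2a and Mef2c. For Sall1 an interval of 1.96 SE ran from -0.40 to 1.71, so the call in WT alone does not show a difference between the genotypes.

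The 4 WT libraries shown apart had member levels as follows. WT ns 1 had Mef2c at 184.3, Maf at 495.6, Sall1 at 762.5 and Runx1 at 203.1 CPM, all outside the range of the WT ns libraries of the fit and within that of the WT LPS samples. WT LPS 1 had Mef2c at 385, Maf at 858.6, Sall1 at 1367 and Runx1 at 141.4 CPM. All but Runx1 of these WT LPS 1 values exceeded the highest WT LPS sample of the fit. WT ns 5 and WT LPS 6, which also stand apart by their rank correlation, had Sall1 at 171.7 and 209.1, Spi1 at 60.5 and 166.1, Runx1 at 80.43 and 66.04, and Bhlhe41 at 27.54 and 88.12 CPM. With all libraries as labelled, no member was called between WT LPS and WT ns, where 0% of 15880 genes were called and the log2 fold change of Mef2c was -0.51 ± 0.23 (adjusted p 0.192, edgeR). At an unadjusted p under 0.05, 3 members (Mef2a, Mef2c and Sall1) passed in that fit, as did 3675 of all genes tested. Maf, Mef2a and Mef2c were still called in KO, where 22.5% of genes tested were called.

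The loss of P2RY12 was not accompanied by a called difference in any member. In the sex experiment 0 of 8 members were called between KO and WT in males, where 0.00946% of the 31711 genes tested were called, in females (0.274%), or averaged over the sexes (0.546%). In the LPS experiment 0 of 8 were called between KO and WT under ns (0.0933% of genes) or under LPS (0.0871%). At an unadjusted p under 0.05, 0 members passed in each of the sex-experiment contrasts, 1, Bhlhe40, under ns (1489 of all 16075 genes) and 0 under LPS. With the libraries that stand apart left out, Mef2a and Sall1 passed that level in females (2534 of 31824 genes) and over both sexes (2356 genes), Bhlhe40 under ns (1999 of 16069 genes), and Sall1 and Bhlhe41 under LPS (1813 genes), with adjusted p-values of 0.143 to 0.626 (edgeR). DESeq2 called 0 members in each of these contrasts.

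**Figure D3:**
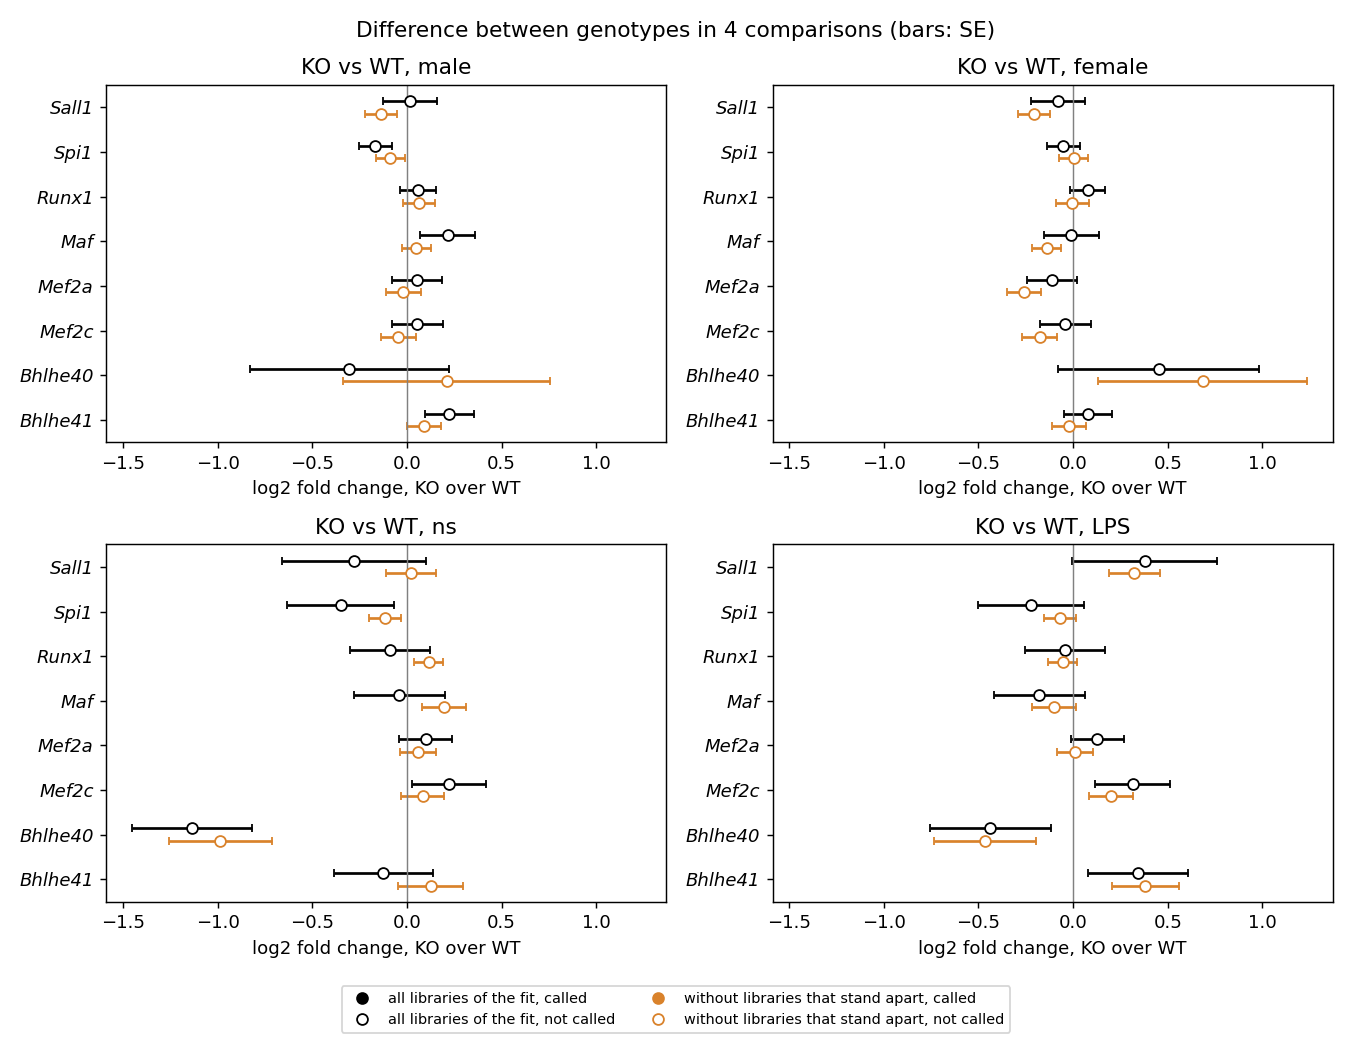
Log2 fold change of each gene between KO and WT (x axis, bars are SE) in males, females, ns libraries and LPS libraries, from all libraries of the fit (black) and without the libraries that stand apart (orange). No point is filled, since none was called. The widest black bars are those of Bhlhe40 in males and females (0.53) and of Sall1 under ns and LPS (0.38). The orange bars of Bhlhe40 in males and females are slightly wider.

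**Figure D4:**
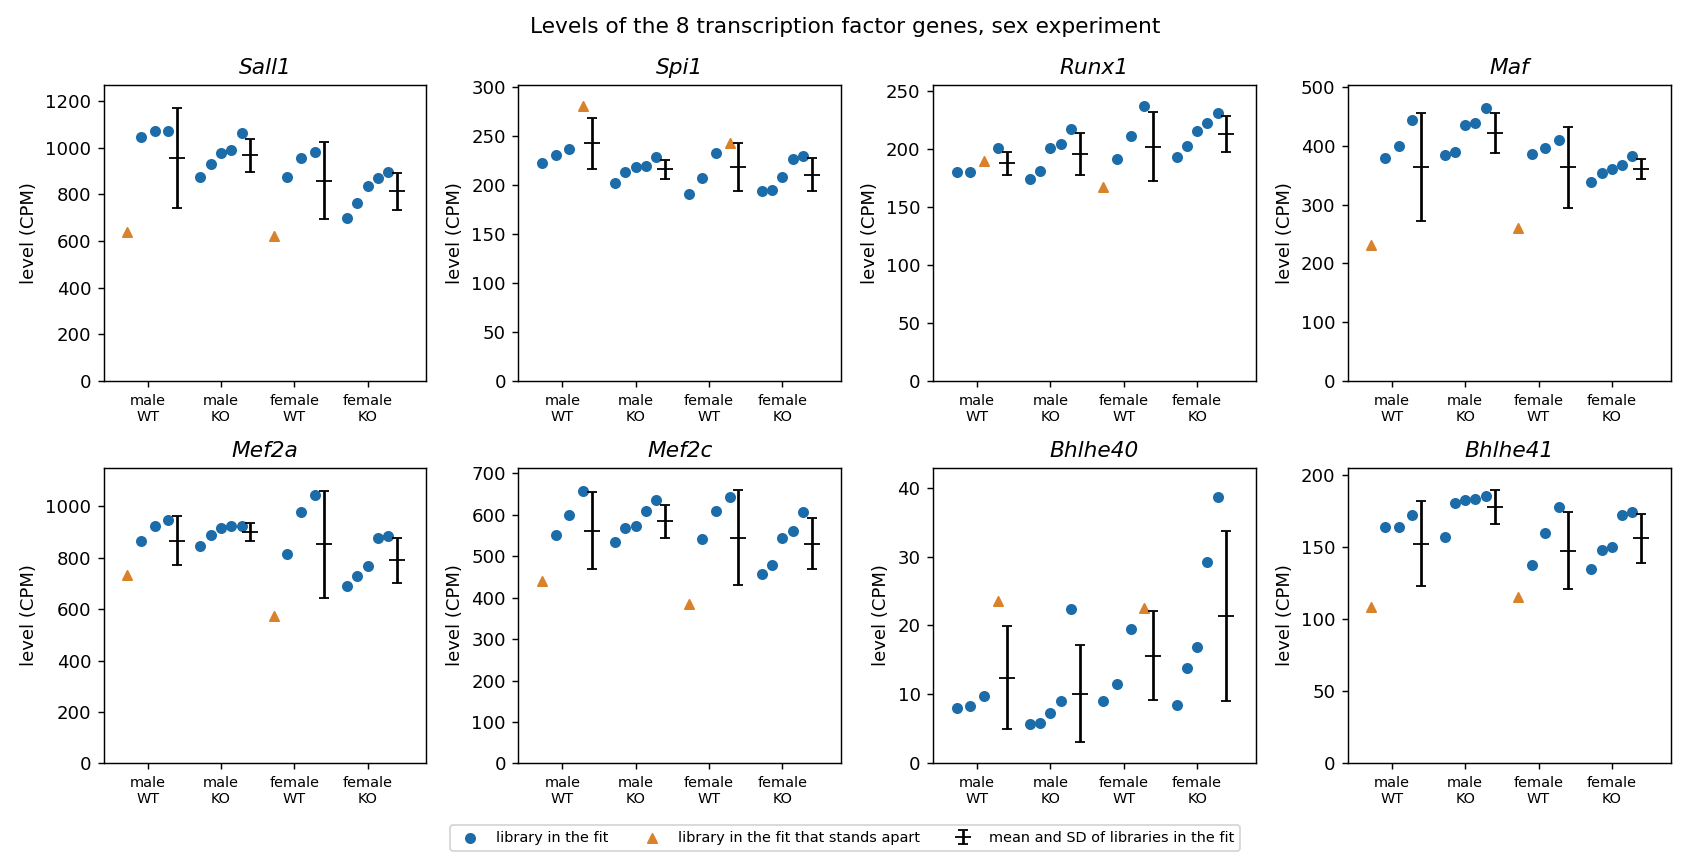
Level of each gene in CPM (y axis) in every animal of the 4 groups of the sex experiment, sorted by level within a group. Blue points are animals, orange triangles are the 2 animals that stand apart, and black marks give the mean and SD. The triangles are the lowest value of their group for Sall1, Maf, Mef2a, Mef2c and Bhlhe41 and the highest for Spi1 and Bhlhe40.

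Sall1 was at 637, 1045, 1073 and 1070 CPM in the 4 male WT animals and at 1063, 977.1, 928.2, 990.9 and 871.9 in the 5 male KO animals. In females it was at 872.5, 620.6, 955 and 981.5 CPM in WT and at 835.6, 896, 868.1, 699.6 and 760.5 in KO. The ranges of KO and WT overlapped in both sexes, and the lowest value of each WT group belonged to the animal that stands apart. Between KO and WT the log2 fold change was 0.02 ± 0.14 in males and -0.08 ± 0.14 in females (adjusted p 0.999 and 1, edgeR). Without the animals that stand apart it was -0.14 ± 0.08 and -0.21 ± 0.08, and -0.17 ± 0.06 averaged over the sexes (adjusted p 0.313).

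Maf was at 231.8, 444.8, 399.1 and 379.3 CPM in male WT and at 463.6, 439.6, 389.1, 434.7 and 384.1 in male KO. In females it was at 386.1, 260.9, 410.2 and 396.1 CPM in WT and at 354.3, 361.4, 367.5, 337.8 and 383 in KO. Without female WT 2, every female KO animal lay below every female WT animal (1.59% of genes tested were lower without overlap), and the difference of -0.14 ± 0.08 was not called (adjusted p 0.702, edgeR). With that animal the log2 fold change in females was -0.01 ± 0.15.

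Mef2a and Mef2c had KO to WT log2 fold changes of 0.05 ± 0.13 and 0.06 ± 0.13 in males and -0.11 ± 0.13 and -0.04 ± 0.13 in females, none called by edgeR. An interval of 1.96 SE for the mean of the sexes ran from -0.21 to 0.16 for Mef2a and from -0.18 to 0.19 for Mef2c. Without the animals that stand apart the values were -0.02 ± 0.09 and -0.05 ± 0.09 in males and -0.26 ± 0.09 (adjusted p 0.380) and -0.18 ± 0.09 in females (edgeR). In this table the reads of Mef2c may not be separate from those of Gm26803, a gene on the opposite strand, since the strand setting is not stated. Gm26803 shares 74089 bases with Mef2c and had 70.6% to 80% of the count of Mef2c. Gm3134 overlaps Sall1 on the opposite strand in the same way, with 12.1% to 15.3% of its count.

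Spi1 had a log2 fold change of -0.17 ± 0.09 in males and -0.05 ± 0.09 in females, and Runx1 of 0.06 ± 0.09 and 0.08 ± 0.09 (edgeR, none called). These 2 genes had the narrowest intervals among the members, from -0.23 to 0.01 for Spi1 and from -0.06 to 0.20 for Runx1 averaged over the sexes. Bhlhe41 had 0.22 ± 0.13 in males and 0.08 ± 0.13 in females. Gm30281, which overlaps Runx1 on the opposite strand, had under 1% of the count of Runx1 (0.3% to 0.976%).

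Bhlhe40 varied most. It was at 23.57, 8.40, 8.06 and 9.74 CPM in male WT, at 5.93, 7.28, 5.73, 9.04 and 22.44 in male KO, at 9.08, 22.56, 11.49 and 19.47 in female WT and at 8.49, 16.84, 13.79, 29.23 and 38.69 in female KO. Its log2 fold change was -0.30 ± 0.53 in males and 0.45 ± 0.53 in females, and the sex-by-genotype interaction was 0.76 ± 0.75 (adjusted p 1, edgeR). Without the animals that stand apart it had 0.21 ± 0.55 in males and 0.68 ± 0.55 in females. A gene on the opposite strand, 0610040F04Rik, shares 306 bases with it and had 9.94% to 36.1% of its count. In the LPS experiment the log2 fold change of Bhlhe40 between KO ns and WT ns was -1.14 ± 0.32, which did not pass the adjustment over all genes (unadjusted p 0.00139, adjusted p 0.345, edgeR), and -0.98 ± 0.27 without the libraries that stand apart (adjusted p 0.143). The lowest, median and highest levels were 3.94, 6.23 and 10.9 CPM in WT ns and 1.19, 3.32 and 4.93 in KO ns, and the groups overlapped. Under LPS its log2 fold change was -0.44 ± 0.32 (adjusted p 0.942).

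The other members differed between KO and WT in the LPS experiment by log2 fold changes of -0.35 to 0.22 under ns and of -0.22 to 0.38 under LPS, none called. The sex-by-genotype interaction and the comparison of female with male WT called 0 members (0% and 0.0757% of genes tested called), with 0 members at an unadjusted p under 0.05 in either contrast and 0 called by DESeq2. Without the animals that stand apart, Sall1 lay at 872.5 to 981.5 CPM in female WT and at 1045 to 1073 in male WT, where 7.87% of genes tested were lower without overlap. That difference of -0.18 ± 0.09 was not called (adjusted p 0.705, edgeR).

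Levels of different genes can be compared only per length. In WT ns, divided by the length of the longest protein-coding transcript in the annotation used (GENCODE M21), Sall1 had the highest level at 251.7 ± 56.1 CPM per kb (n = 6). Spi1 (142.3 ± 29.7), Mef2a (136.0 ± 24.3) and Maf (119.3 ± 24.3) followed and did not differ beyond their spread. Mef2c was at 65.2 ± 11.7, Bhlhe41 at 25.9 ± 4.53, Runx1 at 22.9 ± 2.98 and Bhlhe40 at 2.29 ± 0.90 CPM per kb. Whether the counts of the LPS experiment include introns is not stated. In the sex experiment, divided by whole gene spans, the order was another. Maf was highest in male WT (n = 4) at 99.9 ± 25.3 CPM per kb, followed by Sall1 at 56.5 ± 12.6. Bhlhe41 (21.2 ± 4.1) lay above Spi1 (7.3 ± 0.78) and Mef2a (5.9 ± 0.66) there.

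Within groups, some members varied together. Deviations of log2 CPM from the group mean were correlated over the 18 animals and over the 28 samples of the LPS fit, as a description with no test. Mef2a and Mef2c had r = 0.93 over the animals and 0.34 over the LPS samples, and 0.86 and 0.36 without the libraries that stand apart. Sall1 and Bhlhe41 had 0.89 and 0.86, and 0.71 and 0.80 without them. Mef2c and Maf had opposite signs, 0.84 and -0.78, and 0.64 and -0.29 without them. Libraries share depth and composition across these points. Among 9621 genes with a mean of at least 5 CPM in both tables, those whose deviations were most like a member's in both experiments were Dag1 and Cmtm4 for Sall1 (mean r 0.98 and 0.97), Cdc42ep4 and Lypla2 for Spi1 (0.96 and 0.96), Dnmt3a and Gab2 for Runx1 (0.90 and 0.88), Dyrk2 and Agpat3 for Maf (0.95 and 0.94), Fgf2 and Etv1 for Mef2a (0.84 and 0.84), Cep170 and Abcd3 for Mef2c (0.93 and 0.91), and Nuak1 and Dtx4 for Bhlhe41 (0.94 and 0.94). The r of these 14 genes with their member, without the libraries that stand apart, was 0.77 to 0.93 in the sex experiment but 0.58 to 0.93 among LPS samples, where Dag1 had 0.77, Gab2 0.62, Etv1 0.58 and Abcd3 0.68. Bhlhe40 lay under 5 CPM in 1 table and was not compared.

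The members were not affected alike in the libraries that stand apart. In KO LPS 5, relative to the mean log2 CPM of the other KO LPS libraries, Sall1 was lower by a log2 difference of -2.98 and Spi1 by -2.72, while Mef2a was higher by 0.39 and Mef2c by 1.27. In KO ns 5 the values were -1.53, -2.12, 0.51 and 0.60 in the same order, in KO ns 6 -2.34, -0.82, -0.30 and 0.37, and in WT LPS 7 -2.66, -0.24, -0.43 and 0.58. The reference was each time the libraries of the fit in the same group that do not stand apart, so KO ns 5 and KO ns 6 were left out of each other's mean. Mef2c and Mef2a have the lowest GC content of the members, 40.8% and 42.0% of their longest protein-coding transcript, and Sall1 and Spi1 the highest, 51.6% and 58.9%. Over all genes, KO LPS 5 had a median log2 difference of 0.92 at the lowest GC contents (28.6% to 43.8%). At the highest (55.5% to 86.2%) the median was -2.53. The members did not all follow this order. Runx1, Maf and Bhlhe41 (46.4% to 47.5%) had log2 differences of -0.42 to -1.79 in these libraries. All genes of 43.8% to 47.7% had medians of 0.02 to 0.44 there. Sall1 was lower than Spi1 in KO LPS 5, KO ns 6 and WT LPS 7, although its GC content is lower. Of the 16075 genes tested, 97.6% had a transcript to take a GC content from, and protein-coding transcripts alone covered 79.5%. The part of GC content in the members' levels was not tested.

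**Figure D5:**
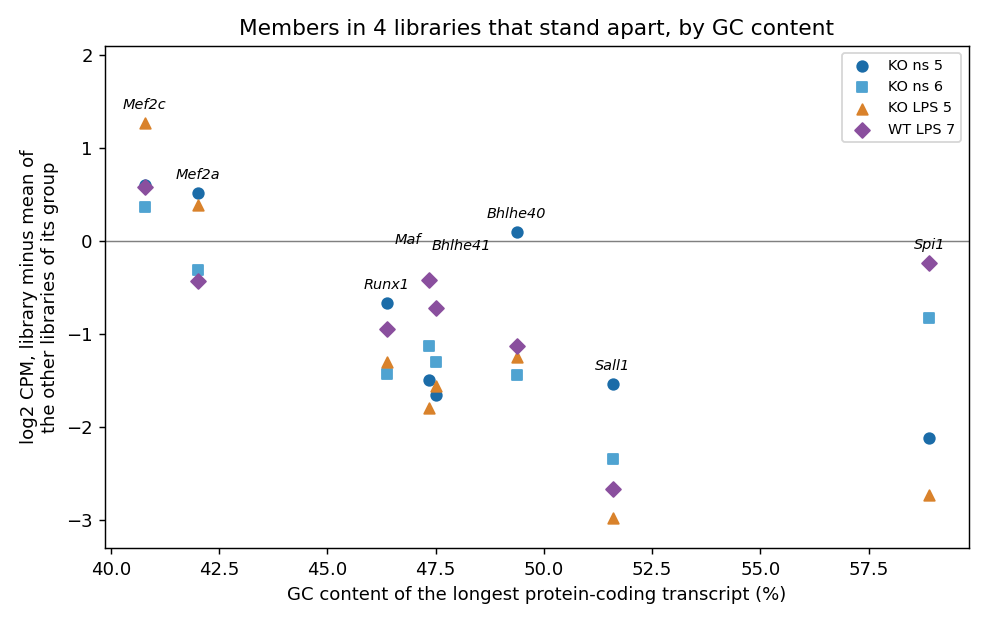
Log2 CPM of each member in 4 libraries that stand apart, minus a group mean (y axis), against the GC content of its longest protein-coding transcript (x axis, %). The group mean is that of the libraries of the fit in the same group that do not stand apart. Mef2c, at a GC content of 40.8%, lies above 0 in all 4 libraries, and Sall1, at 51.6%, lies at -1.53 or lower.

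Genes that work with the members were followed in 4 lists, and values are log2 fold changes with LPS ± SE. Of the relatives and partners of the members, 19 of 25 were tested in the LPS experiment, of which 3 rose and 1 fell in KO and 4 rose and 4 fell in WT (medians of 0.01 and -0.27), where 29% and 31.1% of all genes tested were called. The counts without the libraries that stand apart were 5 higher and 7 lower in KO and 7 higher and 6 lower in WT (54.3% and 53.8% of all genes). With all libraries as labelled, 0 genes of each of the 4 lists were called in WT (0% of all genes). Maff, a small Maf protein, rose by 1.82 ± 0.35 in KO and 2.15 ± 0.40 in WT. Id2, a helix-loop-helix inhibitor, rose by 1.38 ± 0.26 and 2.13 ± 0.31. Hdac4, a deacetylase that MEF2 factors recruit, was called in KO (0.99 ± 0.35) and had 0.63 ± 0.40 in WT, and Id1 was called in WT (1.50 ± 0.48) and had 0.95 ± 0.43 in KO. Hes1, a Notch-induced repressor, fell in both genotypes (-2.23 ± 0.27 in KO and -2.27 ± 0.31 in WT), and Runx2 and Runx3, relatives of Runx1, fell in WT (-1.55 ± 0.55 and -1.40 ± 0.54) and had -0.90 ± 0.47 and -1.02 ± 0.47 in KO. Runx2 and Runx3 also fell in KO (-1.08 ± 0.43 and -1.24 ± 0.24), and Hdac4 also rose in WT (0.85 ± 0.19), without the libraries that stand apart. Several of these genes were at low levels. Their group means in the LPS fit were 0.64 to 2.95 CPM for Id1, 0.85 to 4.94 for Maff and 1.40 to 7.26 for Hes1. Those of Runx2 were 2.15 to 7.67 and those of Runx3 1.99 to 8.65.

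Of 38 other macrophage transcription factors 37 were tested, and 9 rose and 11 fell in KO and 8 rose and 10 fell in WT (medians of -0.07 and -0.34), beside 29% and 31.1% of all genes. Leaving out the libraries that stand apart, 10 rose and 17 fell in KO and 12 rose and 18 fell in WT, beside 54.3% and 53.8% of all genes. Irf7, an interferon regulatory factor, rose most, by 2.68 ± 0.29 in KO and 2.25 ± 0.33 in WT. Klf4, a zinc-finger factor of monocytes, rose by 1.95 ± 0.51 and 2.05 ± 0.58, Nr1h3 (liver X receptor alpha) by 1.72 ± 0.37 and 1.89 ± 0.43, and Tfec, a MiT-family factor, by 1.35 ± 0.38 and 1.97 ± 0.45. Egr2, an early-response factor at under 3 CPM in every library of the fit, fell in KO (-2.03 ± 0.42) and in WT (-1.84 ± 0.48). Pparg, a nuclear receptor at 1.7 CPM or less in every library of the fit, fell in both (-1.56 ± 0.44 and -1.64 ± 0.48). Cebpa (-1.15 ± 0.26 and -1.30 ± 0.30) and Irf4 (-0.92 ± 0.14 and -1.34 ± 0.16) fell in both too.

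Of 12 genes described as targets of PU.1, 4 rose and 1 fell in KO and 2 rose and 1 fell in WT (medians of -0.04 and 0.18), beside 29% and 31.1% of all genes. These counts became 5 and 2 in KO and 5 and 4 in WT without the libraries that stand apart, beside 54.3% and 53.8% of all genes. Itgam, which encodes CD11b, the protein used to select the cells, rose by 0.99 ± 0.14 in KO and 0.88 ± 0.16 in WT. Fcgr1 rose in both (0.77 ± 0.19 and 0.89 ± 0.23). Csf2ra (1.48 ± 0.42) and Itgb2 (0.86 ± 0.20) rose in KO and had 0.92 ± 0.48 and 0.46 ± 0.23 in WT, where they rose without the libraries that stand apart (1.11 ± 0.14 and 0.62 ± 0.08), while Trem2 fell in both (-1.46 ± 0.19 and -1.43 ± 0.22). Of 11 microglial signature genes none rose, 9 fell in KO and 9 fell in WT (medians of -1.49 and -1.37). Of all genes, 29% and 31.1% were called there, and 15.3% and 15.6% were called lower. Without the libraries that stand apart 10 fell in each, beside 54.3% and 53.8% of all genes called in either direction. Slc2a5, a fructose transporter, fell in KO (-3.18 ± 0.34) and in WT (-4.05 ± 0.41). Gpr34, a lysophospholipid receptor, fell likewise (-3.57 ± 0.50 and -2.77 ± 0.56). Siglech, a sialic acid receptor, fell in both (-2.31 ± 0.17 and -2.30 ± 0.20), as did Crybb1, a crystallin (-2.08 ± 0.37 and -2.55 ± 0.44). In the KO to WT comparisons, the comparison of female with male WT and the interactions, none of the genes of the 4 lists was called with all libraries of the fit. Without the animals that stand apart 1 gene was called, Tyrobp, the adaptor protein that TREM2 signals through, which was higher in female KO by 0.35 ± 0.08 (adjusted p 0.0316) and over both sexes by 0.22 ± 0.05 (adjusted p 0.0477, edgeR).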

How the data were processed

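Polyadenylated RNA of CD11b-positive mouse brain cells was sequenced on a NovaSeq instrument, per the labels' protocols. The authors deposited raw counts, whole numbers of reads per gene, in 1 table per experiment. STAR 2.6.1, featureCounts and the build GRCm39 are named in the submitters' processing notes, with no settings or strand. Per the file headers, gene lengths in the table of the sex experiment equal whole gene spans (100% of genes), so introns are included and overlapping genes can share reads. No column was without a sample (0). The labels list 57 libraries, of which 6 are repeat libraries of the sex experiment. These 6 have no column of their own, and whether the animals' counts include their reads is not stated.

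Genes were filtered with filterByExpr (31711 and 16075 genes kept), scaled by TMM and tested with edgeR 4.0.16 (quasi-likelihood, R 4.3.3), 1 mean per group, with the library set as covariate in the LPS experiment. P-values were adjusted by Benjamini-Hochberg over all genes tested, and a gene was called at an adjusted p under 0.05. Alternatives included DESeq2 1.42.0, other filters and scaling, a replicate block and leaving out each library. The scripts were tested on simulated data. Leaving out the libraries that stand apart (median Spearman under 0.95 or 0.8) was chosen after seeing the data. GC content was first taken from protein-coding transcripts only (79.5% of genes) and then from any transcript. The MEF2 and NF-kappaB patterns were widened from 1 sequence each to their consensus after a first search. Members and lists were chosen with earlier results of these data known. In the lists of microglial markers and signature genes 1 gene is not reported here and was left out of sums and counts. Named genes of each list are the 3 called with the largest rise and the 3 with the largest fall per genotype after LPS, and every called gene in other contrasts. Intervals of 1.96 SE describe the uncertainty of a log2 fold change, given the spread between libraries. For edgeR the SE was the size of the log2 fold change divided by the square root of its F statistic.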

Additional observations from a re-analysis of the deposited data

Results flagged for a closer look

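Levels in CPM of the 8 genes were screened for a highest or lowest library far from the rest of its group (Dixon's ratio over its 95% critical value). Of 64 combinations of a gene and a group, 15 were singled out, where chance alone gives about 1 in 20, and 11 of the 15 came from libraries that stand apart.

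In the sex experiment male WT 5 was lowest for Sall1 (637 CPM, next 1045) and Bhlhe41 (108.8, next 164.3) and highest for Bhlhe40 (23.57, next 9.74). Female WT 2 was lowest for Maf (260.9, next 386.1). Male KO 5, which does not stand apart, was highest for Bhlhe40 (22.44, next 9.04) and lowest for Bhlhe41 (157.3, next 180.8).

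In the LPS experiment KO LPS 5 was lowest for Sall1 (111.4 CPM, next 670.7), Spi1 (46.37, next 276.7), Runx1 (75.17, next 177.3) and Maf (122.5, next 366.1) and highest for Mef2c (513.7, next 237.2). KO ns 5 was highest for Mef2a (1119, next 837.6), and WT LPS 7 was lowest for Spi1 (273.6, next 315.3). WT ns 4, the library with 168.4 M counts, was highest for Runx1 (168.2, next 134.0) and Bhlhe41 (212.8, next 163.2).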

How the results depend on the processing

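No member reversed its direction while called in either fit. The count of called members after LPS in KO, 3 with all libraries of the fit, was 5 in library set 1 by itself, 0 in set 2 by itself and 6 without the libraries that stand apart; leaving out each library gave 3 to 4. The count in WT, 4, was 0 with all libraries as labelled and 0 in set 2 by itself, and leaving out each library gave 3 to 5. Members called in KO without the libraries that stand apart were Sall1, Spi1, Runx1, Maf, Mef2a and Mef2c. In the other 8 contrasts 0 members were called under every alternative run. Of the comparisons of 1 gene under 1 alternative, 2457 kept their direction and side of the threshold, 15 gained a call, 21 lost it, and the others were uncalled values that changed sign; the cause was not tested. Over the alternatives the adjusted p of Mef2c ran from 3.42e-08 to 0.227 in KO.

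Same-numbered libraries deviated together in part: 7 of 8 pairs of the sex experiment and 21 of 32 of the LPS experiment correlated above 0.1. The mean r was 0.27 against -0.06 for the 32 other pairs of the sex experiment, and 0.30 against 0.20 for the 103 other pairs of the LPS experiment. Best with their own number correlated 11 of 16 and 9 of 26 samples. The main fits had no block by number. The replicate block gave 0 called members in each contrast of the sex experiment (1 at an unadjusted p under 0.05, over both sexes), and 4 in KO (with Runx1, adjusted p 0.0374) and 5 in WT (with Bhlhe41, adjusted p 0.00369) after LPS, with WT LPS 8 and 9 kept apart. Depth limits Bhlhe40 most, with 17 counts in its lowest KO ns library.

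Counts over all genes moved more. DESeq2 called 27 genes between KO and WT in males against 3 with edgeR, 210 against 87 in females, 359 against 173 over both sexes, 50 against 15 under ns, 57 against 14 under LPS, 156 against 24 between female and male WT and 3 against 0 in the interaction with LPS. Without the libraries that stand apart, edgeR called 8728 against 4662 genes after LPS in KO, 8648 against 4992 in WT, 195 in females, 314 over both sexes, 48 under ns, 44 under LPS and 1 in the interaction. Set 2 by itself gave 785 genes after LPS in KO and 585 in WT, 1 between the genotypes under ns and 0 under LPS; set 1 by itself gave 27 under LPS. A filter of 5 CPM gave 3028 genes after LPS in KO, 5 under LPS and 6 under ns between the genotypes, and 10 between the WT sexes. Fitting only the groups compared gave 3 in females, 3 under LPS and 11 between the WT sexes, RLE scaling 57 in females, and the replicate block 28 in females, 65 under LPS and 13 between the WT sexes. Leaving out single animals gave 6 to 144 genes in females (6 without female WT 1 and without female WT 3, 144 without male WT 5), 74 to 274 over both sexes (74 without male WT 4, 274 without male WT 5) and 14 to 61 between the WT sexes (14 without female WT 1, 61 without female KO 1). Leaving out single libraries gave 8 to 23 genes under LPS (8 without WT LPS 3, 23 without WT LPS 5).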
